A study of Mus musculus with 15 samples.

Results

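The ID genes Id1, Id2, Id3 and Id4 were followed in Ba/F3-beta cells, a mouse pro-B cell line that depends on IL-3, over 5 conditions of IL-3 and siRNA treatment. All probe sets annotated to 1 of the 4 genes were taken, which gave 4 of the 36701 non-control probe sets of the Affymetrix U74 arrays, and 4 of the 15964 genes they name. Each gene had 1 probe set, all on U74A, with 0 on U74B and 0 on U74C. Cells given the control siRNA scramble I were left without IL-3 or given IL-3 for 30 min or 2 h. Cells given siRNAs against both Stat5A and Stat5B were stimulated for the same times. Unstimulated cells with these siRNAs were not analysed here. Each condition had 1 array per array design, so no difference below has a replicate check and no p-value could be computed. The siRNAs lower the 2 STAT5 messages and do not delete the genes.

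ID proteins carry a helix-loop-helix domain without the basic stretch that contacts DNA. They pair with E proteins, the widely expressed basic helix-loop-helix factors Tcf3, Tcf4 and Tcf12, and hold them off DNA, which delays differentiation in many lineages. BMP signals through SMAD factors are classical inducers of the ID genes, EGR factors induce Id3 in lymphocytes, and Id1 has been described as a STAT5 target in IL-3-dependent pro-B cells.

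Signals are MAS5 intensities on a linear scale, and a floor of 119.9 was used for a probe set that could be told from background. A ratio was formed where the signal on 1 of the arrays compared reached this floor. Lower signals were raised to the floor, so that their ratios are lower bounds, given as "at least". Calls are ratios of 2-fold or beyond, a selection by size without a test. The technical spread of a single log2 ratio on U74A, read from 178 to 192 pairs of probe sets of the same gene, was an SD of 0.20 to 0.24. Such pairs lie on the same arrays, so this SD leaves out the spread between samples. The 5 U74A arrays correlated between 0.909 and 0.969 over probe sets that reached the floor, and the actin control, a sign of RNA quality, gave ratios of 3' to 5' signal from 1.01 to 1.12.

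As a check of the cell line, 3 of 3 IL-3 receptor genes reached the floor. Of 12 pro-B and B lineage genes 2 did, Ptprc and Cd79b, while Pax5, Ebf1, Igll1, Vpreb1, Rag1 and Cd79a stayed under it. Of 6 T and NK cell genes 0 reached the floor. It was reached by 2 of 10 myeloid and mast cell genes, 4 of 5 erythroid and megakaryocyte genes and 2 of 8 fibroblast and epithelial genes. Over all probe sets, 14553 of 36701 reached the floor. By gene, 8294 of 15964 were measured in the comparison of IL-3 at 2 h with no IL-3 alone.

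The stretch of 250 bases before the transcription start was read for Id2, Id3 and Id4 from RefSeq on GRCm38.p6 and is shown because Id2 was induced while Id3 and Id4 stayed under the floor. Id1 was not in this table. Capitals mark the CCAAT box (CCAAT or its reverse complement ATTGG) and the E-box (CANNTG), the letters that E proteins bind. The windows lie at chr12:25096093-25096342 on the minus strand for Id2, chr4:136143572-136143821 on the plus strand for Id3 and chr13:48260866-48261115 on the plus strand for Id4.
Id2: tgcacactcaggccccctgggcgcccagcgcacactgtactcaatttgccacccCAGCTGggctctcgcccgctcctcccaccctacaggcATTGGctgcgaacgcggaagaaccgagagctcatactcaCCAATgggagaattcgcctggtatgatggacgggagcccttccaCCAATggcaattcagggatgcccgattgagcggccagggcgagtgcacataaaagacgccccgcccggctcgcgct
Id3: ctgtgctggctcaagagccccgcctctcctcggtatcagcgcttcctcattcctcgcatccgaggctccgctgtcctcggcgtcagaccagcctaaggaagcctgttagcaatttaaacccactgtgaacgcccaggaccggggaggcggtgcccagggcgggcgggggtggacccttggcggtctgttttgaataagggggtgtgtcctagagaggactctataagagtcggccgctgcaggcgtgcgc
Id4: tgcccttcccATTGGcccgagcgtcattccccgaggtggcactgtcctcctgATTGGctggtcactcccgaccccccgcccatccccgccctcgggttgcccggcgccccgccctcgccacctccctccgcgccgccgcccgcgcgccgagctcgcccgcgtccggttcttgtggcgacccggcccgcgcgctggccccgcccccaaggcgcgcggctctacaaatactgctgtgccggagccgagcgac

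The Id2 window held 3 CCAAT boxes, whose nearest bases lie 155, 116 and 72 bases before the start, against 2 in Id4, at 236 and 194, and 0 in Id3. Of 32851 windows of this length 33.8% held a CCAAT box. The single E-box among the 3 genes was in Id2, 191 bases before the start, and 66.2% of windows held one. A GC box (GGGCGG) matched once in Id2, at 2 overlapping places in Id3 and at 5 places in Id4, against 32.7% of windows with a match. The short cAMP response element (TGACG, contained in the full TGACGTCA) matched once in Id3 and once in Id4, against 17.8% of windows. The STAT palindrome TTCNNNGAA, found in 7.02% of windows, had no match in the 3 windows. The EGR site GCGGGGGCG (2.57% of windows), the full cAMP response element (1.55%), the SMAD box GTCTAGAC (0.167%) and the TATA box TATAAA (12.4%) had none either. Both strands were searched, a match is a description of letters, and none of these windows covers more distant elements. The windows of Id2 and Id3 had a GC content of 62.8% and that of Id4 75.6%, against a median of 52.4% over all windows.

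IL-3 raised Id1 and Id2 in control siRNA cells, Id1 within 30 min and Id2 by 2 h. Id1, the ID gene tied to proliferation of early progenitors, had a signal of 50.0 without IL-3, 368 at 30 min and 911 at 2 h. The unstimulated signal lay under the floor and each later signal was higher than the one before. The rise was at least 3.07-fold at 30 min and at least 7.60-fold at 2 h. Id2, which is needed for natural killer and other innate lymphoid cells, had a signal of 297 without IL-3, 347 at 30 min and 825 at 2 h. It was thus present before the cytokine, its log2 ratio of 0.23 at 30 min was the size of the technical SD of 0.23, and it rose 2.78-fold by 2 h.

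At 30 min 1 of the 2 ID genes with a measured ratio was called higher, Id1, where 0.631% of 4276 measured U74A probe sets were called higher and 0.164% lower. With the floor doubled this call was lost (log2 ratio 0.62), since the unstimulated Id1 signal is then raised further. At 2 h both were called higher, against 2.55% of 4357 probe sets called higher and 0.918% lower. The log2 ratio of Id1 at 2 h was at least 2.93. That of Id2 was 1.48, and 40 U74A probe sets, Id2 included, were at or above it. Id1 kept its 2 h call in all 8 settings tried, and so did Id2.

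Between 30 min and 2 h the 2 genes rose by like factors, 2.48-fold for Id1 and 2.38-fold for Id2, and both were called, where 2.11% of 4354 U74A probe sets were called higher and 1.29% lower. These ratios rest on no signal under the floor.

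Id3 and Id4 gave no usable signal. Id3, known in lymphocytes as a brake on E proteins downstream of receptor signals, had a signal of 19.3 without IL-3, 10.5 at 30 min and 16.5 at 2 h of IL-3, and of 4.53 and 14.5 at these times with Stat5 siRNA. Id4, best known from neural and epithelial tissue, had signals between 12.0 and 16.1 on the 5 arrays. The highest Id3 signal was 16.1% of the floor and the highest Id4 signal 13.5%, and no ratio was formed for either. Their highest signals reached or passed those of 32.5% and 29.4% of the 12422 non-control U74A probe sets. A low probe set signal bounds what this probe set could detect and does not show that the message was missing.

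**Figure D1:**
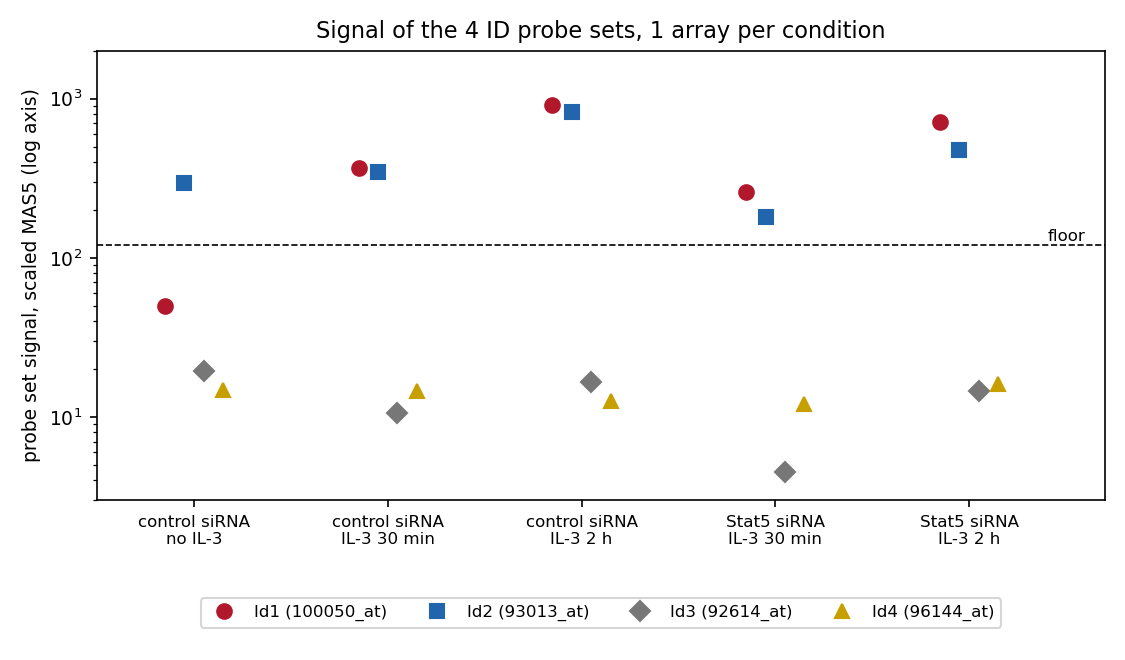
Signal (log axis, scaled MAS5 intensity) of the probe sets of Id1, Id2, Id3 and Id4 on the U74A array of each of the 5 conditions, 1 array per point, with the floor of 119.9 dashed. Id1 crosses the floor with IL-3 and reaches 911, Id2 lies above it on all 5 arrays with a low of 180 at 30 min with Stat5 siRNA, and Id3 and Id4 lie under 20 throughout.

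With Stat5 siRNA both genes had lower signals at both times, Id2 more so than Id1, and neither difference reached 2-fold. As a check of the labels, both siRNA targets had lower signals. The brighter Stat5a probe set stood at 50.6% of control at 30 min and 53.6% at 2 h, and the U74B probe set of Stat5b at 33.2% and 71.3%. That Stat5b probe set read 499 and 177 in control cells and 166 and 126 with Stat5 siRNA. Its control signal was thus itself lower at 2 h, and its siRNA signal was near the floor. By the median over probe sets Stat5a and Stat5b were both called lower at 30 min and neither at 2 h, where 0.382% and 0.43% of genes were called lower. Both Stat5a probe sets are of a kind that can cross-hybridise.

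Id2 had a signal of 180 with Stat5 siRNA against 347 with control siRNA at 30 min, 51.8% of control, and of 474 against 825 at 2 h, 57.5%. The log2 ratios of -0.95 and -0.80 were 4.38 and 3.65 times the technical SD, which leaves out the spread between samples. Only 14 of 4315 measured U74A probe sets were as low or lower at 30 min, and 46 of 4296 at 2 h. The 30 min ratio lies just short of the 2-fold call and passes it with arrays scaled to their median (-1.05), while with the floor doubled it was -0.53. The signal of 180 was also below the 297 of unstimulated control siRNA cells.

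Id1 had a signal of 257 with Stat5 siRNA against 368 at 30 min, 70.0% of control, and of 713 against 911 at 2 h, 78.3%. Its log2 ratios of -0.51 and -0.35 were 2.38 and 1.61 times the technical SD, and 135 and 337 U74A probe sets were as low or lower. Both signals in Stat5 siRNA cells remained above the 50.0 of unstimulated control cells. The difference in siRNA ratio between Id2 and Id1 was not tested, since each rests on 1 array pair.

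At 30 min 0 of the 2 measured ID genes were called lower, where 0.185% of U74A probe sets were, with 0.301% higher (8 lower and 13 higher, or 16 and 10 with median scaling). At 2 h the count was again 0, where 0.326% were, with 0.303% higher (14 lower and 13 higher, or 12 and 23). Median scaling moved all U74A ratios by -0.11 at 30 min and by 0.10 at 2 h. The 2 siRNA comparisons share no array. Of 4062 U74A probe sets measured in both, 35 were at or below both Id1 values, and 10, or 0.246%, were at or below both Id2 values. These 10 included Id2 itself, the siRNA target Stat5a, the feedback inhibitor Cish, the repressor Bhlhe40, the unfolded protein response factor Xbp1, the membrane metalloprotease Adam8 and the calcium-binding protein S100a4.

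**Figure D2:**
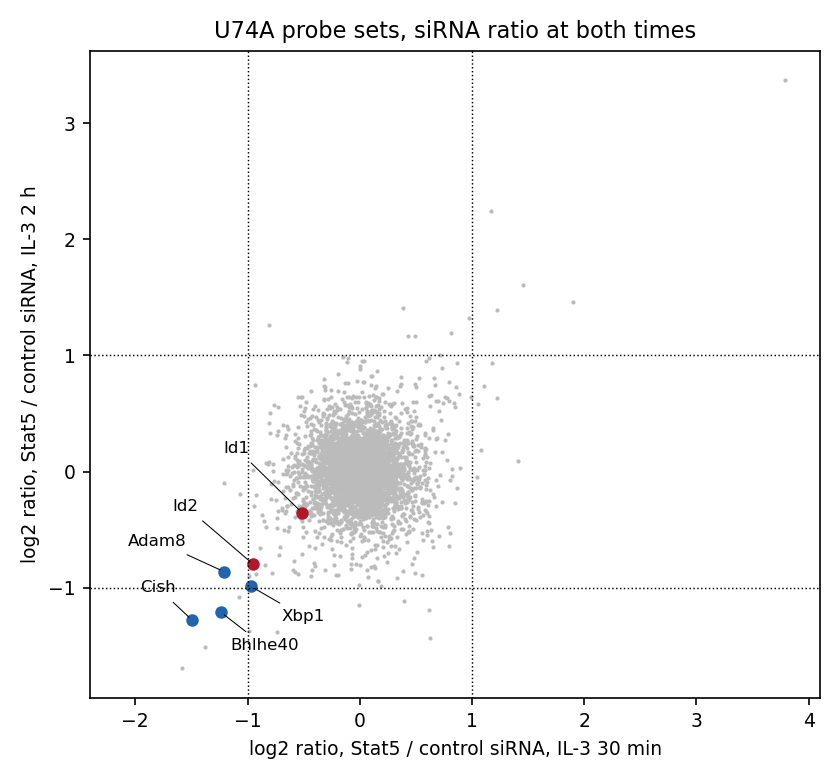
Log2 ratio of Stat5 over control siRNA at 30 min of IL-3 (horizontal) and at 2 h (vertical) for each of 4062 U74A probe sets, with 2-fold as dotted lines, the ID genes in red and 4 other genes in blue. Id2 at -0.95 and -0.80 lies beside Adam8 and Xbp1 at the lower left edge, and Id1 at -0.51 and -0.35 lies nearer the bulk.

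Id1 and Id2 also rose from 30 min to 2 h in Stat5 siRNA cells. Id1 went from 257 to 713, 2.77-fold, and Id2 from 180 to 474, 2.64-fold. Both were called, against 1.59% of 4415 U74A probe sets higher and 0.951% lower (70 higher and 42 lower, or 123 and 25 with median scaling, which moved these ratios by 0.19), and with the floor doubled Id2 was not (0.98). The log2 ratio minus that in control cells was 0.16 for Id1 and 0.15 for Id2, beside a technical SD of 0.34 for such a difference, which leaves out the spread between samples. This difference depended on the setting, with 0.37 and 0.36 under median scaling and -0.26 for Id2 with the floor doubled. The lower Id2 signal with Stat5 siRNA was thus already seen at 30 min.

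To place these values among induced genes without a shared array, probe sets induced at 1 time were read in the siRNA comparison at the other. Of 111 U74A probe sets that rose by 2 h, 100 were measured in the siRNA comparison at 30 min, with a median log2 ratio of -0.058 (quartiles -0.29 and 0.20), against 0.0021 over all 4315. Of these 100, 6 were at or below Id2, itself included, and 16 at or below Id1. Of 27 probe sets that rose by 30 min, 25 were measured in the siRNA comparison at 2 h, with a median of -0.100, and 8 were at or below Id1.

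At each time 7 genes known as STAT5 targets were measured. Of the 7, 3 were called lower, where 0.382% of genes were at 30 min and 0.43% at 2 h. The 7 differed in part, since Socs3 was measured only at 30 min and Pim2 only at 2 h. Cish and Bhlhe40 were called at both times, Socs1 only at 30 min and Pim2 only at 2 h. Cish stood at 35.5% of control at 30 min and 41.2% at 2 h, and Bhlhe40 at 42.4% and 43.2%. The survival kinase gene Pim2 stood at 48.3% at 2 h and the survival factor Bcl2l1 at 72.7%. Socs1, a feedback inhibitor, was called lower at 30 min (log2 ratio -1.21, with a signal under the floor), and its relative Socs2 had 0.08 at both times. The 2 probe sets of the kinase gene Pim1 differed at 30 min, with 102% and 60.5%, and had 97.7% and 94.1% at 2 h. Id2, at 57.5%, lay between Pim2 and Bcl2l1 at 2 h, and Id1, at 78.3%, above Bcl2l1 and below both Pim1 probe sets. These reference genes were chosen with earlier results known, and their order rests on single arrays.

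Other genes moved with the siRNA too. The summed signal of 31 interferon response genes was 9163 and 8167 with control siRNA at 30 min and 2 h and 22079 and 19674 with Stat5 siRNA. Irf7, whose probe set on U74C can cross-hybridise and read 1220 and 1224 against 9275 and 7270, carried much of it, and without Irf7 the sums were 7851 and 6852 against 12217 and 11987. The median log2 ratio of the measured genes was 0.66 and 0.65. Of these genes 6 of 18 measured were called higher at 30 min, where 0.308% of 8124 genes were, and 7 of 19 at 2 h, where 0.504% of 8132 were. The summed signal of 5 erythroid and megakaryocyte genes was 4146 and 3643 with control siRNA and 6046 and 5728 with Stat5 siRNA, while the defining platelet gene Pf4 was under the floor on all arrays. The summed signal of the 3 IL-3 receptor genes was 12026 and 12511 with control siRNA and 7910 and 11255 with Stat5 siRNA, so it was lower at both times. By gene the log2 ratios at 30 min were -0.21 for Il3ra, -0.53 for Csf2rb and -0.65 for Csf2rb2. At 2 h they were 0.05, -0.22 and -0.29, where the technical SD of a single U74A ratio was 0.22. The Csf2rb value is a median over a U74A and a U74B probe set. The part of these groups of genes in the Id1 and Id2 values was not tested.

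The E proteins, the partners that ID proteins hold off DNA, had no call against unstimulated cells by their gene values. Tcf12 had a signal of 575 without IL-3, 556 at 30 min and 402 at 2 h, and Tcf4 of 338, 271 and 206. Both were lower on each later array, with log2 ratios at 2 h of -0.52 and -0.71. By gene value 0 of 3 E proteins were called at either time. At 30 min 0.711% of 8155 genes were called higher and 0.343% lower, and at 2 h 2.45% of 8294 and 1.63%. Tcf3, the best known E protein in B cells, gave a U74A signal of 148 without IL-3 that was under the floor on the other arrays. Its U74C probe set, of a kind that can cross-hybridise, gave 125, 279 and 124 in control cells and 204 and 272 with Stat5 siRNA. Against unstimulated cells the Tcf3 gene value came from the U74A probe set. In the other comparisons it came from the U74C one, since the U74A signals were then under the floor. The U74C rise from 125 to 279 at 30 min, beyond 2-fold, was thus not counted. Through the U74C probe set Tcf3 was called lower from 30 min to 2 h in control cells (log2 ratio -1.17). That was 1 of 3 E proteins, where 1.65% of genes were called lower. Tcf3 was also the single E protein called with Stat5 siRNA, at 2 h (log2 ratio 1.14), where 0.504% of genes were called higher. Both calls ended with the floor halved, doubled or set per design. With Stat5 siRNA Tcf12 had 411 at 30 min and 534 at 2 h, log2 ratios of -0.44 and 0.41, and Tcf4 had 383 and 196, ratios of 0.50 and -0.07. The siRNA ratios of the E proteins thus differed in sign between times or genes.

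Few tissue-restricted partners of E proteins were detected, where 8294 of all 15964 genes were measured at 2 h of IL-3 over no IL-3. Of 20 such genes on the arrays 4 reached the floor: Tal1 and Lyl1, both regulators of blood stem cells and early progenitors, and Neurod2 and Nhlh1, known from neurons. None was called with IL-3 at 2 h, where Neurod2 had the largest log2 ratio (0.83) and 2.45% of genes were called higher. Nhlh1, on a probe set that can cross-hybridise, was called lower from 30 min to 2 h (-1.02), where 1.65% of genes were, a call lost with median scaling or the floor doubled. None was called with Stat5 siRNA, where 0.382% of genes were called lower at 30 min and 0.43% at 2 h, although Nhlh1 had -0.99 at 30 min and 1 gene was called there with median scaling. Tal1 signals lay between 583 and 718 on the 5 arrays. Of 7 HES and HEY repressors on the arrays 3 reached the floor, and none was called in the 2 siRNA comparisons or with IL-3, beside the same shares of genes.

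Ligands and antagonists of the BMP pathway were sparsely detected on these arrays. The floor was reached by 14553 of 36701 probe sets. That share is by probe set, while the counts here are by gene, each read on its brightest probe set. By gene, 8294 of 15964 were measured at 2 h of IL-3 over no IL-3. Of 11 ligands of the BMP and TGF-beta family 1 reached the floor, Tgfb1, and Bmp2, Bmp4, Bmp6 and Bmp7 did not. Of 6 antagonists 0 did, Nog included. Tgfb1 had a signal of 388 without IL-3, 332 at 30 min and 766 at 2 h, and of 432 and 756 with Stat5 siRNA. It rose 2.31-fold from 30 min to 2 h, where 1.89% of 8234 genes were called higher, and its siRNA log2 ratio at 2 h was -0.02. Of 11 receptors 5 reached the floor, Bmpr2, Acvr1b, Tgfbr1, Tgfbr2 and Eng, and the type I BMP receptors Bmpr1a, Bmpr1b and Acvr1 did not. None was called at 2 h of IL-3, where Tgfbr2 had -0.92, and with median scaling 1 receptor was called lower. Of 8 SMAD genes 3 reached the floor, Smad2, Smad4 and Smad5, and 0 were called in either siRNA comparison, with medians of -0.13 and -0.11, where 0.382% and 0.43% of genes were called lower. Smad6 and Smad7, inhibitory SMADs that BMP signals induce, stayed under the floor.

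Among other factors that act on ID genes, Egr2 was the EGR gene called with IL-3. Its signal was 25.9 without IL-3, 2238 at 30 min and 309 at 2 h, and 1939 and 218 with Stat5 siRNA. The Egr2 signal was thus highest at 30 min and those of Id1 and Id2 at 2 h, and a link between them was not tested. At 30 min of IL-3 1 of 3 measured EGR genes was called higher, where 0.711% of 8155 genes were called higher and 0.343% lower, and 2 were with the floor halved. From 30 min to 2 h 1 of 3, Egr2, was called lower, where 1.65% of genes were. Both Egr1 probe sets stayed under the floor. Of the C/EBP family Cebpb, which acts with STAT5 at the Id1 gene in described models, had a signal of 240 without IL-3, 247 at 30 min and 356 at 2 h, and of 246 and 556 with Stat5 siRNA. Its siRNA log2 ratio at 2 h was 0.64, and Ddit3, an inhibitory C/EBP relative, was the 1 of 4 measured members called higher with Stat5 siRNA at each time, where 0.308% and 0.504% of genes were, and 0 were with the floor doubled.

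Genes that E proteins act on in lymphoid cells were mostly under the floor. Of 22 early lymphoid genes on the arrays 2 reached it, Cd79b and Gfi1b. Of all 15964 genes, 8294 were measured at 2 h of IL-3 over no IL-3. Gfi1b, a transcriptional repressor found in erythroid and megakaryocyte cells, went from 470 without IL-3 to 430 at 30 min and 144 at 2 h. The log2 ratio at 2 h was -1.70, a call lost with the floor doubled. With Stat5 siRNA Gfi1b had signals of 373 and 208. Among CDK inhibitors, several of which E proteins can induce, Cdkn2d fell by 1.15 on the log2 scale at 2 h, the 1 of 3 measured that was called lower, where 1.63% of genes were, and 0 were with the floor doubled. The brighter Cdkn1a probe set had signals of 213, 731 and 483 in control cells and 445 and 293 with Stat5 siRNA. Cdkn1a rose at 30 min (log2 ratio 1.36 over its 2 probe sets) and had siRNA ratios of -0.63 and -0.80, beside the -0.95 and -0.80 of Id2. Of the 5 genes for the turnover of ID proteins, 0 were called with IL-3 over no IL-3 or in the siRNA comparisons. Over these comparisons 0.308% to 2.45% of genes were called higher and 0.343% to 1.63% lower. Usp1, which removes ubiquitin from ID proteins, had signals between 632 and 704.

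**Figure D3:**
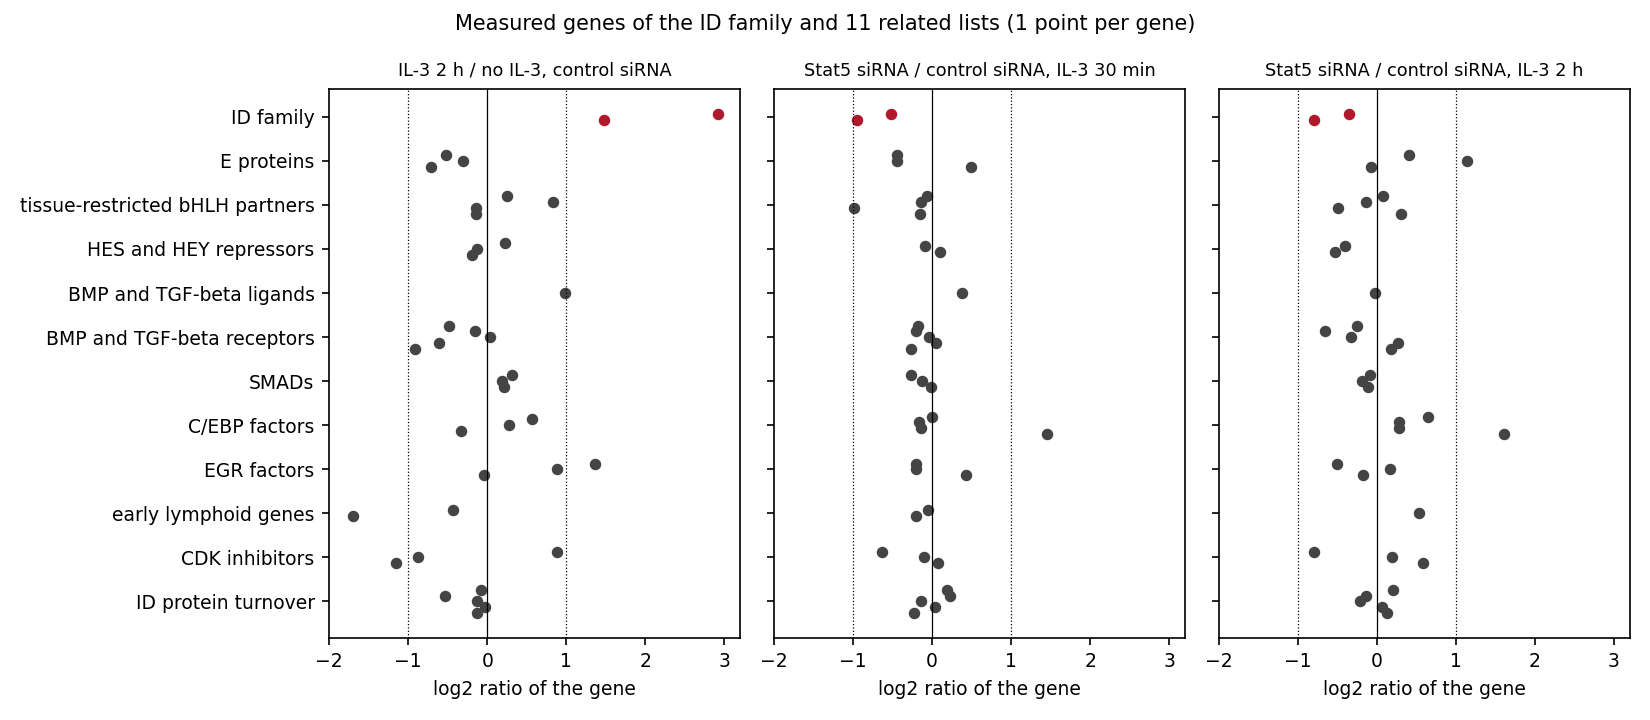
Log2 ratio of each measured gene (1 point) of the ID family, in red, and of 11 related lists for IL-3 at 2 h over no IL-3 and for Stat5 over control siRNA at 30 min and at 2 h, with 2-fold as dotted lines. With IL-3 the ID points at 1.48 and 2.93, the latter a lower bound, lie to the right of 2-fold, and with Stat5 siRNA they lie between -0.95 and -0.35.

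Genes with the most similar course were found on U74A by the root mean square difference of centred log2 signals over the 5 conditions, among 4190 probe sets. For Id2 the nearest was Adam8, at 0.12, where the median probe set lay at 0.75. Adam8 signals were 365 without IL-3, 400 at 30 min and 969 at 2 h, and 173 and 534 with Stat5 siRNA, so it too was lowest at 30 min with Stat5 siRNA. Next came Fam3c, a secreted protein gene, with both of its probe sets (0.21 and 0.26), the actin regulator Enah (0.25) and Aopep (0.28). All 5 had their highest signal at 2 h with control siRNA. Such shared low and high points come with the choice, since these probe sets were picked by likeness to Id2 over the same arrays.

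For Id1 the nearest genes were less close, with F2r, a thrombin receptor, at 0.37, the circadian gene Noct at 0.42, the initiation factor Eif1a at 0.42, the IL-4 receptor chain Il4ra at 0.44 and Xbp1 at 0.45, against a median of 1.07. They differed in the siRNA response. At 2 h F2r had 555 in control and 839 in Stat5 siRNA cells, Eif1a had 830 and 878, and Il4ra had 649 and 356. Id1, at 78.3% of control at 2 h, had a siRNA ratio below those of F2r and Eif1a and above that of Il4ra.

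**Figure D4:**
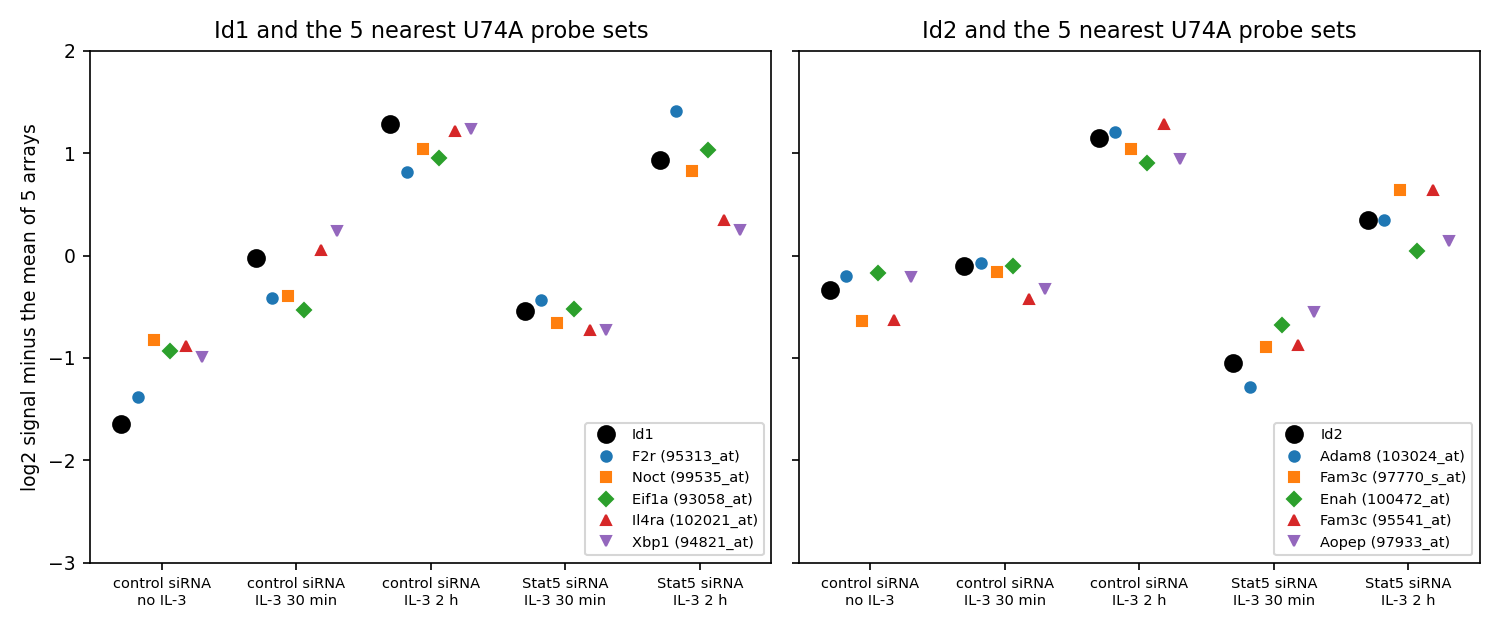
Log2 signal minus the mean over 5 arrays (signals under the floor raised to it) for Id1 (left) and Id2 (right), in black, and their 5 nearest U74A probe sets, in the 5 conditions with 1 array each. Adam8 follows Id2 at a root mean square difference of 0.12, while the nearest to Id1, F2r at 0.37, parts from it at 2 h with Stat5 siRNA.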

How the data were processed

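RNA of 5 conditions was hybridised to 3 array designs, 15 arrays in all, grouped by their titles. The authors deposited linear probe set intensity values made with MAS5, per the series' design text and the submitters' processing notes; detection calls were not used here. The trimmed mean, leaving out 2% at each end, ranged from 150.04 to 150.10 over the 15 arrays, and each was scaled to a common value. The floor is the signal that 14553 of 36701 probe sets reached on their highest array, the number the design text gives as passing its filters. Ratios were taken within a design with Python 3.11.15 and pandas 2.3.3, and the steps were tested on simulated data. The number of arrays, 1 per condition and design, limits the precision.

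Gene symbols came from the platform annotation, which gave 29131 non-control probe sets 1 symbol, 724 several and 6846 none. A gene's value is the median over its measured probe sets, leaving out those ending in _f_at, _r_at, _i_at or _x_at, which can cross-hybridise, where others exist. The members, the 16 gene lists, 6 marker lists and motifs were chosen with earlier results of these data known. Named are all ID probe sets, Stat5a and Stat5b, list members past 2-fold or with the largest ratios, and the 5 nearest probe sets of each ID gene spanning 2-fold; other named genes were chosen after their values were seen.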

Additional observations from a re-analysis of the deposited data

How the results depend on the processing

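Other settings tried were median, quantile and no further scaling, the floor halved, doubled or set per design, and signals not raised to the floor. No Id1 or Id2 ratio changed sign in any of them. The Id1 ratio to unstimulated cells follows the floor: at 30 min and 2 h the log2 ratio was 2.62 and 3.93 with the floor halved, 0.62 and 1.93 with it doubled, 1.85 and 3.16 with a floor per design, and 2.88 and 4.19 with signals not raised. With the floor doubled the Id2 ratio was -0.53 for Stat5 siRNA at 30 min and 0.98 from 30 min to 2 h with Stat5 siRNA, and the ID genes called were 0 with IL-3 at 30 min and 1 from 30 min to 2 h with Stat5 siRNA. With median scaling 1 was called lower with Stat5 siRNA at 30 min.

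Counts over all U74A probe sets moved with the floor, by construction alike with it halved and with signals not raised. For Stat5 siRNA at 30 min, 13 higher and 8 lower became 22 and 16, and 6 and 3 with the floor doubled; at 2 h, 13 and 14 became 24 and 30, and 8 and 6. For IL-3, 27 and 7 at 30 min became 36 and 16, and 20 and 3; 111 and 40 at 2 h became 156 and 70, and 66 and 17. From 30 min to 2 h, 92 and 56 became 140 and 87, and 56 and 29 in control cells; 70 and 42 became 115 and 81, and 41 and 20 with Stat5 siRNA. No paired analysis was possible because each condition has 1 array per design and the labels carry no replicate numbers.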
